A study of Mus musculus with 9 samples.

Results

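The comparison described here sets mouse muscle labelled beta-arrestin knockout and given DKK1 against muscle labelled beta-arrestin knockout and given PBS, a salt solution used as the vehicle. It was chosen by the labels and holds 2 of the 9 libraries of the series, 1 on each side. The other muscle libraries are wild type given DKK1 (1 library), tumour given MDC (1), tumour given PBS (1) and wild type given PBS (2). They served to place values, to scale the counts and in the statistical fits. The remaining 2 libraries are from kidney and were not used here. Letters in the deposited table names put the knockout pair, wild type DKK1 and wild type PBS library 2 in a set C, and wild type PBS library 1 with the tumour libraries in a set B. The labels do not say which beta-arrestin gene was deleted or by which method, which muscle was taken, or the strain, age, dose and duration of DKK1. MDC is named by its letters alone.

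DKK1 is a secreted inhibitor of Wnt signalling. It binds the co-receptors LRP5 and LRP6 together with Kremen proteins and takes them from the cell surface, so that Wnt ligands and Frizzled receptors can no longer stabilise beta-catenin. Beta-arrestins are adaptors that link receptors at the cell surface to clathrin for uptake. The series title places the work in cancer cachexia, the loss of muscle and fat in the presence of a tumour. The knockout pair sets DKK1 against PBS in muscle that the labels call beta-arrestin knockout.

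In the libraries labelled knockout, counts of both beta-arrestin genes were close to those of wild type, so these libraries are called by their labels here. Arrb1, the gene of beta-arrestin-1 (plus strand of mm10 chromosome 7, 99535466 to 99606771), was at 28.2 and 20.5 CPM (counts scaled to library size with TMM) in the libraries labelled knockout DKK1 and knockout PBS, at 22.1 CPM in wild type DKK1, and at 20.3 and 17.3 CPM in wild type PBS libraries 2 and 1. Arrb2, the gene of beta-arrestin-2 (plus strand of chromosome 11, 70432635 to 70440828), was at 7.98 and 9.61 CPM in the libraries labelled knockout DKK1 and knockout PBS, at 8.32 CPM in wild type DKK1, and at 7.86 and 7.59 CPM in wild type PBS libraries 2 and 1. Counts over a whole gene do not resolve single exons, and whether either gene was altered was not tested. The libraries held 30976557 (knockout DKK1) and 24923134 (knockout PBS) counted reads, and 0 counts allow up to 3 counts, or 0.0910 and 0.124 CPM. Skeletal muscle markers summed to 150173 and 180747 CPM with none of the 13 at 0, and kidney tubule markers to 7.0 and 10.1 CPM. Wild type PBS library 1 stood apart from library 2 in slow fibre and macrophage genes and in many other lists. Median log2 differences (library 2 over library 1) were, for example, 2.50 for Schwann cell and myelin markers and -1.33 for ribosomal proteins. Over 11928 genes the 2 libraries correlated at Pearson's r = 0.867, against 0.919 for library 1 and the library labelled knockout PBS. This difference bears on every wild type value below.

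With 1 library on each side, the difference between the libraries labelled knockout DKK1 and knockout PBS has no replicate check. A size rule was therefore used: a change of 2-fold or more, with 100 or more counts in the higher library. Of the 10838 genes with that count, 236 were higher (2.18%) and 74 lower (0.683%) in the DKK1 library, and the median log2 change over all of them was -0.02. The 2 wild type PBS libraries are of sets B and C, so replicate and set differences between them cannot be told apart. The knockout pair was also tested with edgeR's quasi-likelihood test, whose spread rests on these 2 libraries alone. At 0.05 after Benjamini-Hochberg adjustment it found 0 of 15482 genes (0.0%), and 48 genes had an unadjusted p below that value. DESeq2 also called 0 genes (58 unadjusted) and limma-voom 0 (21 unadjusted). The counts and values below therefore compare these libraries, not the conditions. The intervals of ratios are exact conditional binomial 95% intervals, and they cover counting error only.

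Genes of slow muscle fibres led the genes higher with DKK1. Slow fibres contract slowly, rely on oxidative metabolism and use their own versions of the sarcomere proteins. All 16 genes of the slow fibre list were past the size rule and higher in the library labelled knockout DKK1, with a median log2 change of 3.64, against 2.18% of all measured genes. No member was lower. In bulk muscle, fewer cells of a type and less RNA per cell cannot be told apart.

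Myh7, the myosin heavy chain of slow fibres and heart ventricle (chromosome 14, 54970684 to 54994626, minus strand), had 67721 counts in the library labelled knockout DKK1 and 203 counts in the library labelled knockout PBS. In CPM these are 2055 and 8.38. It was at 138 CPM in wild type DKK1, 332 CPM in tumour MDC, 34.1 CPM in tumour PBS, and 135 and 2.30 CPM in wild type PBS libraries 2 and 1. The DKK1 library labelled knockout was thus the highest of the 7 and its PBS partner the second lowest. The ratio within the knockout pair was 245 (interval 214 to 283), a log2 change of 7.93. Tnnc1, the troponin C of slow fibres and heart, was at 294 and 2.35 CPM in the libraries labelled knockout DKK1 and knockout PBS, a ratio of 125 (96.4 to 165). It was at 31.7 CPM in wild type DKK1 and at 29.1 and 0.562 CPM in wild type PBS libraries 2 and 1. Tnni1, which encodes troponin I of slow fibres, was at 240 CPM (knockout DKK1) and 2.68 CPM (knockout PBS), a ratio of 89.4 (70.0 to 116). Wild type DKK1 had 28.4 CPM of Tnni1, tumour MDC 85.3 CPM, tumour PBS 9.32 CPM, and wild type PBS libraries 2 and 1 had 29.5 and 0.0937 CPM. For all 3 genes the wild type pair of set C lay between the libraries of the knockout pair.

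The sequences upstream of these 3 genes are shown because Myh7, Tnnc1 and Tnni1 had the largest log2 changes of the slow fibre members, although motif matches were known when they were chosen. Each is the 250 bases before the transcription start in RefSeq (build GRCm38.p6), on the gene's own strand from 5′ to 3′. Myh7 is read from chr14:54994627-54994876 (minus strand), Tnni1 from chr1:135799171-135799420 (plus) and Tnnc1 from chr14:31208062-31208311 (plus). Capitals mark CCACCC (the CACC box) and, in addition, CATTCC (the MCAT element) for Myh7 and Tnnc1 and TAAAAATA (an A/T-rich motif of the MEF2 type) for Tnni1, or their reverse complements.
Myh7: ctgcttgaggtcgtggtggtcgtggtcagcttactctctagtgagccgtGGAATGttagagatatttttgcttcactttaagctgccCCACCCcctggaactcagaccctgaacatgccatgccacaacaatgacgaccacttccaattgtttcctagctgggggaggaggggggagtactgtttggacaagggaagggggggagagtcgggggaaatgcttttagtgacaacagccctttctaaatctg
Tnni1: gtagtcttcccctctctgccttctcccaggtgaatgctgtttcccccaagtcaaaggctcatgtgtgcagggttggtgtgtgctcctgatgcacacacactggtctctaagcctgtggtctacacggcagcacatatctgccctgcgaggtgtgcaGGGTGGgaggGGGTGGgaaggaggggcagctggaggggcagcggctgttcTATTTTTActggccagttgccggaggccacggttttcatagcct
Tnnc1: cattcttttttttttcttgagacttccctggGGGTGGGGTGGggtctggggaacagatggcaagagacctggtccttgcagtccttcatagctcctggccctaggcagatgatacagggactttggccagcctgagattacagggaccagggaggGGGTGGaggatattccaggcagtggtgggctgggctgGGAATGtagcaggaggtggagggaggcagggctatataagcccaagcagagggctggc
RefSeq upstream windows were matched for 14 of the 16 slow fibre genes. In all, 12 motifs were searched on both strands, and the motifs put in capitals were picked after the matches had been seen. CCACCC was in 9 of the 14 windows, against 30.6% of 27025 genes. TAAAAATA was in 3 of 14, against 2.84%, and CATTCC in 3 of 14, against 14.4%. The other searched motifs were CANNTG in 14 of 14 (69.3% of all genes), GAGGAA in 2 (25.9%), AAGGTCA in 2 (4.70%), and CTA and TAG parted by 4 unspecified bases in 1 (3.70%). CACGTG was in 1 (6.86%), TGAGTCA in 1 (5.16%), TTCCGGAA in 1 (0.662%), GAGGAAGT in 0 (2.79%) and TCACGTG in 0 (3.58%). GAGGAAGT contains GAGGAA, and TCACGTG contains CACGTG, which itself is a form of CANNTG. A match describes letters in these windows and is not evidence of a bound site.

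The other slow fibre members followed the same direction with smaller ratios. Tnnt1, the slow troponin T, was at 493 and 5.78 CPM in the libraries labelled knockout DKK1 and knockout PBS, a ratio of 85.4 (72.3 to 102). The light chains of slow and cardiac myosin, Myl2 and Myl3, had ratios of 63.4 (54.9 to 73.7) and 33.1 (30.5 to 35.9). Atp2a2, the SERCA2 calcium pump of slow fibres, was at 1242 and 54.8 CPM, a ratio of 22.7 (21.4 to 23.9). Tpm3, the slow tropomyosin, was at 661 and 33.5 CPM, a ratio of 19.7 (18.4 to 21.2). All 5 intervals lie well above a ratio of 1. Log2 changes of the remaining 8 members ran from 1.08 for Pln, which encodes phospholamban, to 2.97 for Myh7b, a heavy chain related to Myh7. Between them were Sln, the SERCA inhibitor sarcolipin, at 2.96 and Myoz2, a Z-disc protein of slow fibres, at 2.74. Casq2, the calsequestrin of heart and slow fibres, was at 2.05 and Csrp3, a Z-disc protein, at 1.79.

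**Figure D1:**
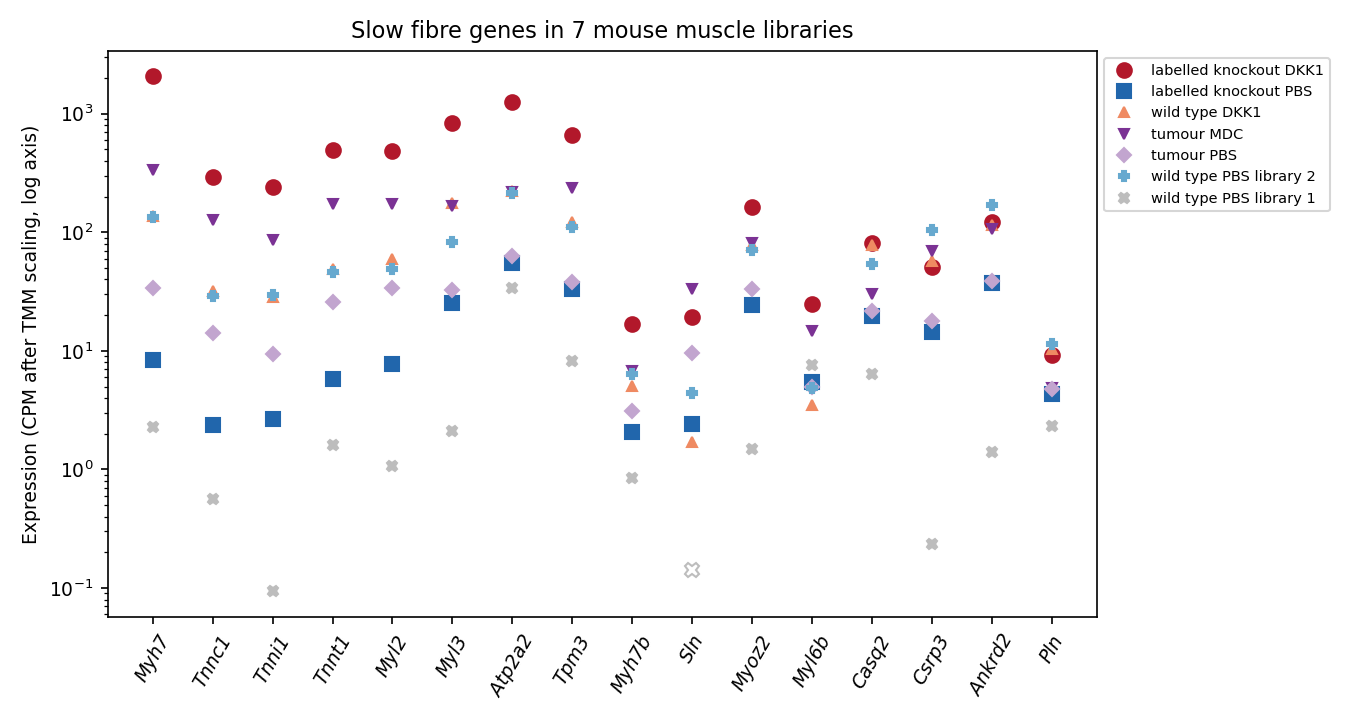
Expression of the 16 slow fibre genes (x axis) in CPM after TMM scaling (y axis, log axis) in each of the 7 muscle libraries, 1 symbol per library; an open symbol marks 0 counts and is drawn at the limit of 3 counts. The library labelled knockout DKK1 was the highest of the 7 for 12 of 16 genes, and the library labelled knockout PBS was below wild type PBS library 2 for 15 of 16.

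In wild type muscle of set C the same list did not shift as a group. Its median log2 change with DKK1 was 0.04, with 1 member higher (Myl3, 1.09) and 1 lower (Sln, -1.35) of 16. For the whole wild type set C pair, 351 of 11489 measured genes were higher (3.06%) and 124 lower (1.08%), with a median log2 of 0.01; scaling by total counts alone gave 798 higher and 83 lower. The PBS library labelled knockout was low beside wild type PBS library 2, with a median log2 difference of -1.85 over the slow fibre list. It was above wild type PBS library 1 for 15 of 16 members. The 2 wild type PBS libraries themselves differed on this list by a median log2 of 5.34 (library 2 over library 1), a difference larger than the 3.64 of the knockout pair. Summed over the 16 genes, levels were 6788 and 249.9 CPM in the libraries labelled knockout DKK1 and knockout PBS, 1176 CPM in wild type DKK1, 1855 CPM in tumour MDC and 384.7 CPM in tumour PBS. In wild type PBS libraries 2 and 1 they were 1124 and 69.9 CPM. The muscle taken is not given in the labels, and whether the pieces of muscle differed in fibre makeup was not tested.

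Among the 4 adult myosin heavy chains, the share held by Myh7 and Myh2 was larger with DKK1. Counts of these genes can be compared directly, since their lengths in the tables are 6019 to 6083 bases. Myh7 took 4.05% of the counts of the 4 genes in the library labelled knockout DKK1 and 0.0136% in the library labelled knockout PBS. Myh2, the heavy chain of fast oxidative (type 2A) fibres, took 6.15% and 2.42%, at 3119 and 1483 CPM, a ratio of 2.1 (2.08 to 2.13). Myh1, of type 2X fibres, took 8.37% and 9.20%. Myh4, of the fastest (type 2B) fibres, took 81.4% with DKK1 and 88.4% with PBS, at 41298 and 54229 CPM and a log2 change of -0.39, within the size rule. Type 2B myosin therefore remained most of the heavy chain counts in both libraries. Myh4 took 53.2% in wild type DKK1, 68.6% in wild type PBS library 2 and 96.5% in wild type PBS library 1. Of the 18 measured fast fibre genes, 2 were higher (Myh13 and Myh2) and none was lower, against 2.18% and 0.683% of all genes. Their median log2 change was -0.39, with 16 members below 0.

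**Figure D2:**
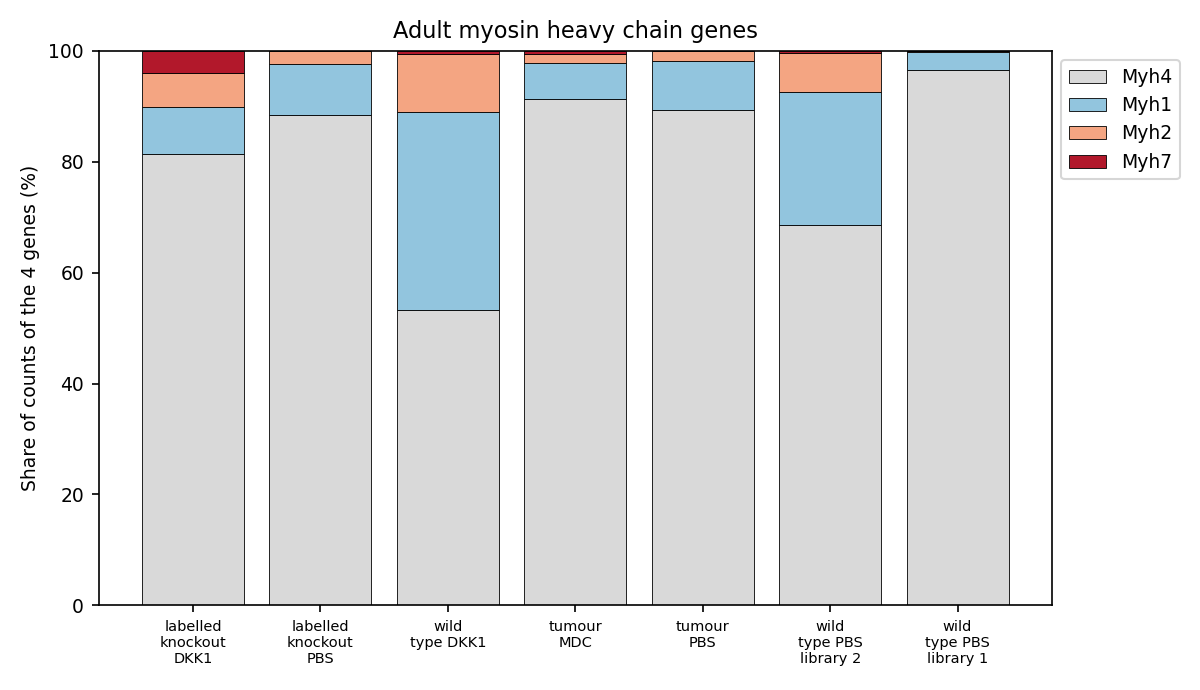
Share of counts (y axis, percent) of Myh4, Myh1, Myh2 and Myh7 among these 4 genes, stacked for each of the 7 muscle libraries (x axis). The band of Myh7 is 4.05% in the library labelled knockout DKK1 and under 1% in the other 6 libraries.

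Genes beside the slow fibre list behaved as follows. Mhrt, a long noncoding RNA transcribed antisense to Myh7 (chromosome 14, 54968678 to 54974349, plus strand), was at 388 and 1.65 CPM in the libraries labelled knockout DKK1 and knockout PBS. Its span overlaps that of Myh7, the strand setting of the counting is not given in the sources used here, and reads of the pair cannot be told apart. Myh6, the alpha heavy chain of heart and the neighbour of Myh7, was at 131 and 2.81 CPM, a ratio of 46.8 (36.9 to 60.4). With Tnnt2, the cardiac troponin T, at 5.89 and 2.39 CPM, it made 2 of 4 measured cardiac markers higher (median log2 0.76). Among all measured genes 2.18% were higher. The 10 cardiac markers summed to 333.4 and 255.8 CPM with 4 and 2 of them at 0 counts. The higher sum with DKK1 rests on Myh6, which holds 131 and 2.81 CPM of it. Of the 4 measured markers 3 had a log2 change above 0 and 1 below 0. Reads of Myh6 and Myh7 may be split between these related genes by the counting. In the sarcomere list of 25 measured genes, 2 were higher and 1 was lower, against 2.18% and 0.683% of all genes. Its median of -0.02 turned to 0.02 with TMM over all genes, 0.11 with total counts, 0.01 with TMM over set C and 0.01 without wild type PBS library 2. Myom3, a myomesin of the M-band, was at 85.4 and 20.4 CPM, and Lmod2, a leiomodin of thin filaments, at 432 and 142 CPM. Xirp2, a Xin actin-binding repeat protein, was at 1730 and 3477 CPM, a log2 change of -1.01 that did not pass 2-fold under 4 of 8 alternatives.

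Markers of macrophages and monocytes led the genes lower with DKK1. These cells clear debris in muscle and carry distinct programmes as tissue residents or recent arrivals. Of 24 measured markers, 11 were lower and 2 were higher in the library labelled knockout DKK1, with a median log2 change of -0.84, against 0.683% lower and 2.18% higher among all genes. The markers summed to 333.3 and 567.7 CPM in the libraries labelled knockout DKK1 and knockout PBS, and none of the 26 was at 0 counts in either.

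Gpnmb, a membrane glycoprotein of lipid-laden macrophages (chromosome 6, 49036546 to 49070929, plus strand), had 89 and 626 counts in the libraries labelled knockout DKK1 and knockout PBS, or 2.70 and 25.8 CPM. It was at 5.14 CPM in wild type DKK1, 1.07 CPM in tumour MDC, 1.85 CPM in tumour PBS, and 65.6 and 0.328 CPM in wild type PBS libraries 2 and 1. Only the 2 PBS libraries of set C were thus above 20 CPM. Spp1, the secreted protein osteopontin, was at 3.52 and 31.6 CPM in the libraries labelled knockout DKK1 and knockout PBS, a ratio of 0.111 (0.0907 to 0.135). It was at 19.5 CPM in wild type DKK1 and at 135 and 22.3 CPM in wild type PBS libraries 2 and 1. Ctss, the lysosomal protease cathepsin S, was at 9.86 and 53.8 CPM in the knockout pair, a ratio of 0.183 (0.162 to 0.207). Its level was 12.6 CPM in wild type DKK1 and 65.7 and 3.33 CPM in wild type PBS libraries 2 and 1. Ctss was thus at or under 15 CPM in 5 libraries and above 50 CPM in the PBS libraries of set C.

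The upstream windows of Ctss and Spp1 are shown because both genes were lower with DKK1 in each genotype of set C and hold the letters GAGGAA, the core bound by PU.1-type factors, marked in capitals. They are read from chr3:95526536-95526785 (Ctss, plus strand) and chr5:104434861-104435110 (Spp1, plus strand) in build GRCm38.p6 of RefSeq.
Ctss: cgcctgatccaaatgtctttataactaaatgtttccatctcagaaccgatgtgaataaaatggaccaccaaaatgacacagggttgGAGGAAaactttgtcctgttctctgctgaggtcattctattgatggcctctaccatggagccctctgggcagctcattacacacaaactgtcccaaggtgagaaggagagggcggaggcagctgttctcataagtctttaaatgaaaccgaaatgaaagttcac
Spp1: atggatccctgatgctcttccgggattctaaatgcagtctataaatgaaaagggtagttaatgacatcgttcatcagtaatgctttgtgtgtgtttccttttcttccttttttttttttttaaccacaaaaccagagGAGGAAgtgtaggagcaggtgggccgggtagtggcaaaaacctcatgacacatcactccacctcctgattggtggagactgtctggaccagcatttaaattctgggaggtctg
Of the 11 lower markers, 10 had a RefSeq window. GAGGAA was in 6 of these 10, against 25.9% of all genes, and GAGGAAGT in 2, against 2.79%. CANNTG was in 10 of 10, CCACCC in 3, TGAGTCA in 1 and AAGGTCA in 1. The other 6 motifs were in 0 of 10. These windows too were picked after the matches had been seen.

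The remaining lower markers were receptors, adaptors and lysosomal proteins. Ly6c2, a surface antigen of inflammatory monocytes, was at 0.485 and 5.03 CPM, and Fcgr1, an IgG receptor, at 0.485 and 4.79 CPM in the libraries labelled knockout DKK1 and knockout PBS. Each had 16 counts in the DKK1 library, so that their ratios of 0.0964 (0.0534 to 0.163) and 0.101 (0.0561 to 0.172) rest on few reads. Trem2, a lipid-sensing receptor, had a log2 change of -2.32 and its adaptor Tyrobp one of -1.52. Lgals3, the lectin galectin-3, was at 10.4 and 39.4 CPM, and Cd68, a lysosomal glycoprotein, at 5.28 and 13.8 CPM. Ccr2, the receptor that brings monocytes from the blood, was at 5.61 and 14.8 CPM, and Fcer1g, a chain shared by Fc receptors, at 2.52 and 5.94 CPM. The other 11 measured markers stayed within the size rule. Log2 changes were -0.92 for Lyz2, -0.75 for Itgam, -0.61 for Laptm5, -0.58 for Cd14 and -0.26 for C1qb. They were above 0 for C1qc (0.30), Mrc1 (0.51) and Lyz1 (0.72), and the other 3 markers follow. Csf1r, the growth factor receptor of the lineage, had a log2 change of -0.07, Adgre1, which encodes F4/80, one of -0.52, and C1qa, a complement chain made by macrophages, one of 0.10.

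The 2 higher markers are known from resident macrophages around vessels. Lyve1, a hyaluronan receptor also carried by lymphatic vessels, was at 19.5 and 5.61 CPM in the libraries labelled knockout DKK1 and knockout PBS, a ratio of 3.47 (2.88 to 4.21). Cd163, a scavenger receptor for haemoglobin, was at 18.2 and 8.42 CPM, a ratio of 2.16 (1.84 to 2.55). No neutrophil or lymphocyte marker reached 100 counts in the pair. Neutrophil markers summed to 2.7 and 3.8 CPM and lymphocyte markers to 3.0 and 4.7 CPM in the libraries labelled knockout DKK1 and knockout PBS.

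**Figure D3:**
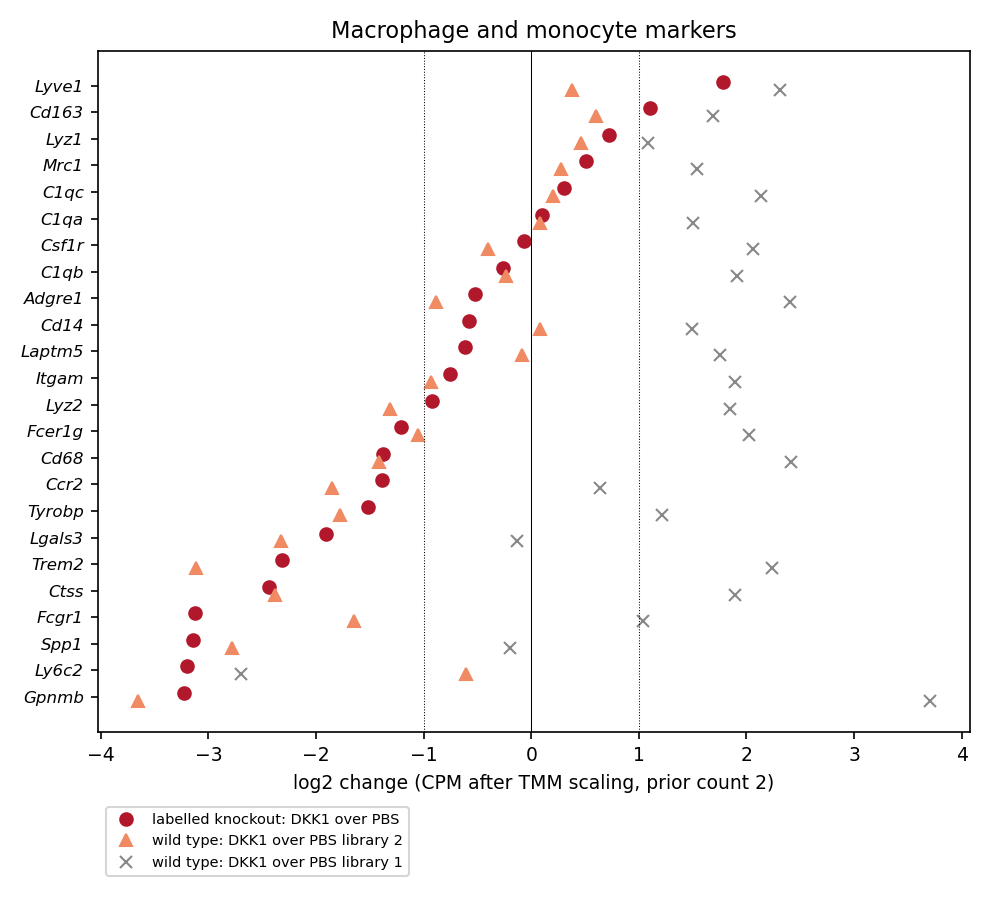
Log2 change with DKK1 (x axis) of the 24 measured macrophage and monocyte markers (y axis, ordered by the change in the libraries labelled knockout): circles for the pair labelled knockout, triangles for wild type DKK1 over PBS library 2 and crosses for wild type DKK1 over PBS library 1; dotted lines mark 2-fold, and Ly6c2 and Fcgr1 had fewer than 100 counts in each library of the wild type pair of set C. Circles and triangles of Gpnmb, Spp1, Ctss and Trem2 lie below -2, while the crosses of Gpnmb, Ctss and Trem2 lie above 1.

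In wild type muscle of set C, 11 of 23 measured macrophage markers were lower with DKK1 and none was higher. Among all genes measured in that pair 1.08% were lower and 3.06% higher. Of the 11 markers lower in the pair labelled knockout, 9 were also lower in the wild type pair. An additive fit of genotype and treatment to the 4 set C libraries tested the DKK1 change common to both genotypes. It has 1 residual degree of freedom. By edgeR's quasi-likelihood test, 5 of 14366 genes had an adjusted p under 0.05, all lower (0.0348%). They were Gpnmb (log2 -3.47, adjusted p 0.00492), Spp1 (-2.95, 0.00492), Mpeg1 (-2.89, 0.0252), Ctss (-2.41, 0.00492) and Lgals3 (-2.12, 0.0270), each lower in 2 of 2 pairs. Mpeg1 encodes perforin-2, a pore-forming protein of macrophages, and was at 8.07 and 46.3 CPM in the libraries labelled knockout DKK1 and knockout PBS. DESeq2 called 173 genes in this fit, 116 higher and 57 lower, and edgeR without a filter on low counts 369, and all 5 genes were among both sets. The call depended on the wild type library. With library 1 in place of library 2 the adjusted p of the 5 genes ran from 0.567 to 0.994 and 9 other genes were called, all higher. With both wild type PBS libraries 0 genes were called (edgeR, 281 unadjusted), and the 5 genes had an adjusted p of 0.903. The summed macrophage markers were at 481.0 CPM in wild type DKK1, and at 1018 and 164.5 CPM in wild type PBS libraries 2 and 1.

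Some fibroblast markers were higher in the library labelled knockout DKK1. Of 15 measured, 4 were higher and none lower, with a median log2 change of 0.78 and 14 members above 0, against 2.18% of all genes higher. Fbln1, the matrix protein fibulin-1, was at 5.13 and 0.701 CPM (7.31-fold, 4.43 to 12.8) in the libraries labelled knockout DKK1 and knockout PBS. Pi16, a marker of adventitial fibroblasts, was at 34.0 and 10.8 CPM, and Gsn, the actin-severing protein gelsolin, at 764 and 303 CPM. Clec3b, the plasminogen-binding protein tetranectin, was at 71.8 and 30.2 CPM. The collagen genes Col1a1 and Col3a1 had log2 changes of 0.25 and 0.16, within the size rule. In the library labelled knockout PBS all 15 fibroblast markers were below wild type PBS library 2, and 14 of 15 markers of the library labelled knockout DKK1 were not above wild type DKK1. Among 6 measured tendon and cartilage markers, Comp, a cartilage matrix protein, was at 5.22 and 0.701 CPM, and Prg4, the joint lubricant lubricin, at 45.6 and 14.9 CPM. The median of that list was 0.83. Of 7 Schwann cell and myelin markers, Prx, which encodes periaxin, was higher at 10.01 and 4.87 CPM, and the median was 0.64. In wild type muscle of set C 4 of 15 fibroblast markers and 10 of 16 Schwann cell markers were higher with DKK1, against 3.06% of all genes measured in that pair. The part of these cells in other results was not tested.

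Most genes of the erythroid list, which marks red cells, were higher. Of 7 measured erythroid genes 5 were higher, against 2.18% of all genes, with a median log2 change of 1.14. In wild type muscle of set C 5 of 7 were higher, against 3.06% of all genes measured in that pair. Hba-a1, which encodes an alpha-globin chain, was at 616 and 260 CPM in the libraries labelled knockout DKK1 and knockout PBS, and at 854 and 320 CPM in wild type DKK1 and wild type PBS library 2. Alpha- and beta-globin genes exist in near-identical copies whose reads cannot be assigned with certainty. Alas2, the enzyme that starts haem synthesis in red cell precursors, was at 5.86 and 2.15 CPM. The summed erythroid markers were at 1973 and 1069 CPM in the pair labelled knockout. Mcpt4, a mast cell protease and the only one of 8 mast cell markers with 100 counts, was at 3.55 and 1.36 CPM. Apoa2, a lipoprotein of liver and the only measured gene of the liver and pancreas list, had a log2 change of -0.75, and that list summed to 4.3 and 14.7 CPM.

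Immediate early genes are switched on within minutes of a stimulus. Of 23 measured, 6 were higher and none lower, with a median log2 change of 0.81, against 2.18% and 0.683% of all genes. Fos, a subunit of the factor AP-1, was at 77.7 and 29.8 CPM in the libraries labelled knockout DKK1 and knockout PBS, and at 20.8 and 75.8 CPM in wild type DKK1 and wild type PBS library 2. Egr1, a zinc finger factor, was at 69.2 and 32.4 CPM in the pair labelled knockout and at 35.1 and 76.3 CPM in the wild type pair. For both genes the library labelled knockout DKK1 and wild type PBS library 2 were the highest of the 7. Zfp36, which speeds the decay of cytokine messages, had a ratio of 2.31 (2.1 to 2.56) and Btg2, an antiproliferative gene, one of 2.24 (2.04 to 2.47). In the library labelled knockout PBS all 23 genes of this list were below wild type PBS library 2. The wild type pair of set C had 3 of 27 measured genes of this list higher with DKK1 and 4 lower (median log2 -0.08). Among all genes measured in that pair 3.06% were higher and 1.08% lower.

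Some genes of the complement, acute phase and chemokine lists were past the size rule. Among all measured genes 2.18% were higher and 0.683% lower. Of 18 measured complement genes 5 were higher and 1 lower (median log2 0.30). C7, a part of the membrane attack complex, was at 5.83 and 1.57 CPM in the libraries labelled knockout DKK1 and knockout PBS, and C4b, an early component, at 13.8 and 4.62 CPM. The central component C3 was at 73.3 and 33.4 CPM. C3ar1, the receptor for C3a and a gene of macrophages, was the 1 that was lower, at 2.64 and 15.4 CPM. For 16 of the 18 complement genes the library labelled knockout PBS was below wild type PBS library 2. The library labelled knockout DKK1 was above wild type DKK1 for 2 of 18. The wild type pair of set C had none of 19 higher with DKK1 and 2 lower, against 3.06% and 1.08% of all genes. The IL-6/STAT3 and acute phase list had 3 of 15 genes higher and none lower (median 0.25). These were Lbp, which binds bacterial lipopolysaccharide, at 8.77 and 2.64 CPM, Zfp36, and Cebpb, a C/EBP factor, at 26.8 and 13.3 CPM. In the wild type pair of set C, 1 of 18 measured acute phase list genes was higher with DKK1 and 3 were lower (median -0.51). Cebpb was just inside the size rule at a log2 change of 1.00, as was Maff at 1.00, and Ctsk, at 1.00, was just outside it. Of 14 chemokine genes the decoy receptors Ackr1 (2.58-fold, 1.87 to 3.62) and Ackr3 (2.1-fold, 1.90 to 2.32) were higher and Ccr2 lower, with a median log2 change of 0.36.

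Among DKK1 receptors and the Wnt receptor complex, some secreted modulators were higher. Of 39 measured genes 5 were higher and none lower, with a median log2 change of 0.14, against 2.18% and 0.683% of all genes. Rspo3, an R-spondin that strengthens Wnt signals, was at 9.19 and 0.949 CPM in the libraries labelled knockout DKK1 and knockout PBS, a ratio of 9.69 (6.34 to 15.5). Dkk2, a relative of Dkk1, was at 7.98 and 1.28 CPM, a ratio of 6.24 (4.29 to 9.37). The secreted Frizzled-related proteins Sfrp4 and Sfrp1 had ratios of 3.77 (2.69 to 5.40) and 3.03 (2.05 to 4.61), and the receptor Fzd10 was the fifth. In the other libraries Dkk2 was at 3.76 CPM in wild type DKK1, 5.90 CPM in tumour MDC, 7.71 CPM in tumour PBS, and 2.88 and 6.37 CPM in wild type PBS libraries 2 and 1, so its level in the library labelled knockout PBS was the lowest of the 7. Wild type muscle of set C had 3 of 41 genes of this list higher and 1 lower, against 3.06% and 1.08% of all genes.

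The receptors of DKK1 themselves stayed within the size rule. Lrp6 was at 55.3 and 59.7 CPM in the libraries labelled knockout DKK1 and knockout PBS, a ratio of 0.927 (0.865 to 0.994). Lrp5 was at 21.4 and 12.7 CPM, a ratio of 1.68 (1.47 to 1.93). Kremen1, the partner of DKK1 in LRP uptake, was at 108 and 56.2 CPM, a log2 change of 0.94 that became 1.07 under scaling by total counts. Ckap4, another DKK1 receptor, was at 8.80 and 11.1 CPM. Dkk1 itself had 0 counts in both libraries, and Dkk3 was at 65.8 and 75.3 CPM. Ctnnb1, which encodes beta-catenin, the effector of the pathway, was at 249.9 and 264 CPM. Axin2, a Wnt target gene and feedback inhibitor, was at 8.37 and 6.31 CPM. Nkd1, Lef1 and Tcf7 had fewer than 100 counts in each library of the pair. Of 14 measured Wnt target genes 2 were higher and none lower, against 2.18% and 0.683% of all genes.

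Ubiquitin ligases of muscle atrophy were nearly level in the pair labelled knockout. Fbxo32, which encodes atrogin-1, was at 384 and 341 CPM in the libraries labelled knockout DKK1 and knockout PBS, a log2 change of 0.17. In wild type muscle it was at 93.4 CPM with DKK1 and at 216 and 346 CPM in PBS libraries 2 and 1, and thus lower with DKK1 there. Trim63, which encodes MuRF1, was at 251 and 219 CPM (0.20), against 121 CPM in wild type DKK1 and 119 and 247 CPM in wild type PBS libraries 2 and 1. The atrophy list of 26 genes had 2 higher and none lower. None of the 31 proteasome subunits, 25 autophagy and lysosome genes, 48 respiratory chain subunits or 49 ribosomal proteins measured passed the size rule. Over all measured genes 2.18% were higher and 0.683% lower, and nothing particular to these lists is read from their counts.

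Several of the 15 highest and 15 lowest genes are on none of the lists above. Sv2b, a synaptic vesicle protein, was at 10.5 and 0.330 CPM in the libraries labelled knockout DKK1 and knockout PBS. Lgi1, a secreted leucine-rich protein, was at 10.9 and 0.454 CPM. Sbk3, a kinase gene, was at 9.56 and 0.578 CPM, and Scn3b, a sodium channel subunit, at 4.19 and 0.248 CPM. Each had from 6 to 14 counts in the PBS library, so the upper ends of their ratio intervals reach from 30.6 to 74.3. Among the lowest, Ms4a4c, of the membrane-spanning 4A family, had 5 and 101 counts and a ratio of 0.0364 (0.0116 to 0.0878). Tlr13, a receptor for bacterial RNA, Fyb, an adaptor of immune cells, Ms4a7 and the unconventional myosin Myo1f had log2 changes from -2.86 to -2.20. Rrad, a small GTPase that restrains calcium channels, was at 3.25 and 17.1 CPM, and Tph1, a serotonin-synthesis enzyme, at 1.24 and 7.34 CPM. Of the 15 lowest genes, 6 are on the macrophage and monocyte list: Gpnmb, Ly6c2, Spp1, Fcgr1, Ctss and Trem2.

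**Figure D4:**
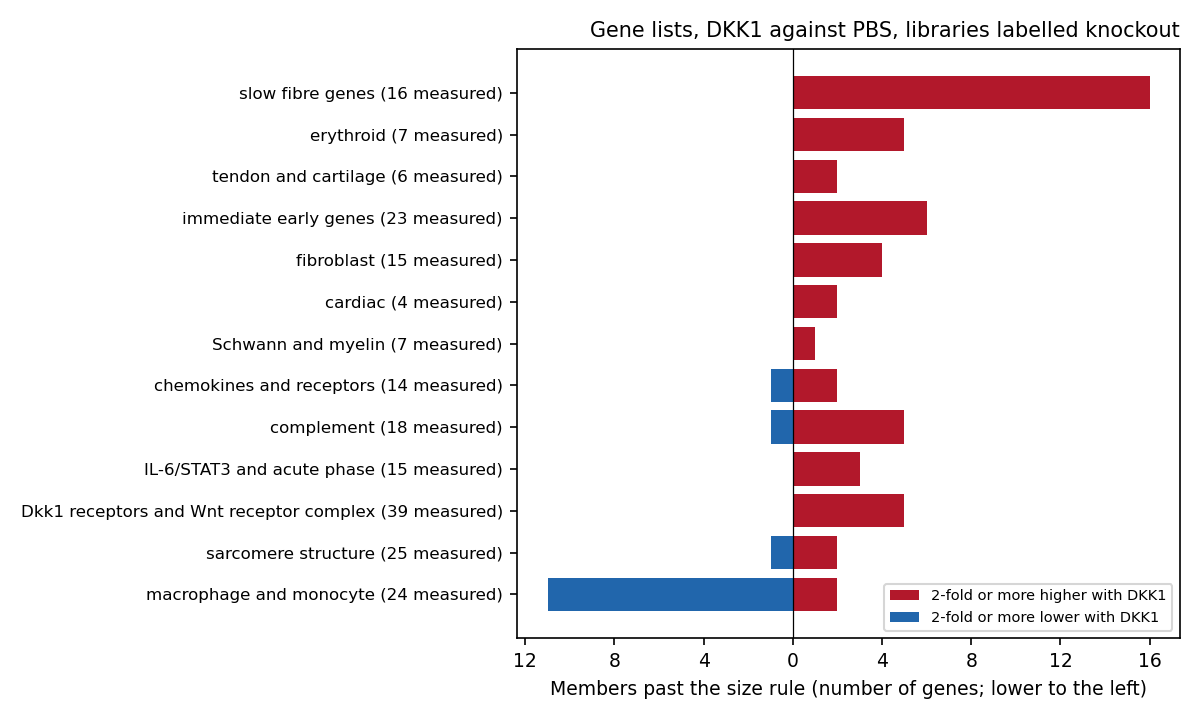
Number of list members past the size rule (x axis, higher with DKK1 to the right and lower to the left) for the pair labelled knockout, 1 row per described list with at least 4 measured genes, whose number is in brackets. Slow fibre genes reach 16 to the right and macrophage and monocyte markers 11 to the left.

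Of 51 gene and marker lists, 15 met the criterion for description, 36 did not, and 3 of these had no measured member. The criterion was 3 members or 20% of those measured past the size rule, or a median more than 0.5 from that of all genes.

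Set side by side, the DKK1 changes of the pair labelled knockout and of the wild type pair of set C overlapped in part. Of 10662 genes measured in both pairs, 31 were higher in both, which is 13.1% of those higher in the pair labelled knockout and 8.83% of those higher in wild type. Each symbol counts once among the 31, which hold the globin genes Hba-a1, Hba-a2, Hbb-b1, Hbb-bs, Hbb-b2 and Hbb-bt. Hbb-b1 and Hbb-bs had the same log2 changes, as did Hbb-b2 and Hbb-bt. The lower genes shared 23, or 31.1% of those lower in the pair labelled knockout and 18.5% of those lower in wild type. Among all measured genes 3.06% were higher and 1.08% lower in wild type, and 2.18% and 0.683% in the pair labelled knockout. Of the 23 shared lower genes 9 are on the macrophage list, which holds 24 of the 10838 genes measured in the pair labelled knockout. Across the 10662 genes the changes correlated at Pearson's r = 0.278 and Spearman's rho = 0.283, a description over genes of the same 4 libraries. With wild type PBS library 1 as the reference, 187 genes changed the same way in place of 54. That reference also gave a longer wild type list, with 2314 of 11600 measured genes higher and 1421 lower.

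A further 12 of the 10662 genes measured in both pairs were past 2-fold in opposite directions. Higher in the pair labelled knockout and lower in wild type were 10 genes, among them Fos and Egr1, C4b and Sln, and the noncoding RNA genes Rpph1, Rmrp and Rn45s. The reverse held for Gm4841 and Mup10. The difference of the DKK1 changes was tested as an interaction in edgeR over all 7 libraries, with both wild type PBS libraries as the wild type reference and not library 2 alone. For Gm4841 this turned the sign of the difference, which was -2.48 against library 2 and 6.34 in the fit. No gene of the 15482 was called, that is 0 (0.0%), with 44 under 0.05 before adjustment and a smallest adjusted p of 0.826, for Rpph1. DESeq2 called 3 genes, Rmrp (adjusted p 0.00828), Rpph1 (0.00836) and Lars2 (0.0280). Rn45s, the precursor of ribosomal RNA, took 1.05% of counts in the library labelled knockout DKK1 and 0.359% in the library labelled knockout PBS, against 0.622% in wild type DKK1 and 8.29% in wild type PBS library 2. Its share thus moved with these 3 genes, and its part in the result was not tested. For the slow fibre list, the interaction was not called for any member despite medians of 3.64 and 0.04, and the fit takes its spread from 2 wild type PBS libraries that differ on that list.

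**Figure D5:**
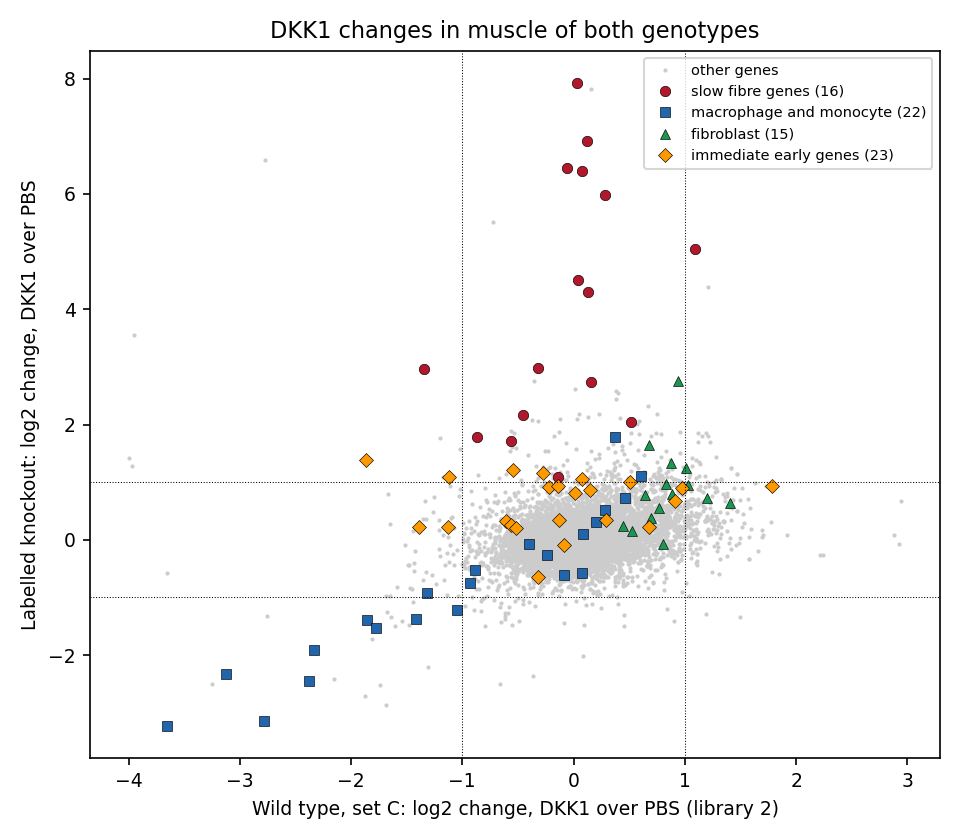
Log2 change with DKK1 in the pair labelled knockout (y axis) against the wild type pair of set C (x axis) for 10662 genes measured in both; coloured symbols are members of 4 lists and dotted lines mark 2-fold. Slow fibre genes lie high on the y axis near 0 on the x axis, with a median of 3.64 on y, and the lowest macrophage markers lie low on both.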

How the data were processed

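Expression was measured by RNA sequencing of muscle in 7 libraries. Each deposited table holds the authors' unnormalised counts of reads for 24421 gene symbols, with lengths and the authors' RPKM. The deposited RPKM served only as a check: recomputed values differed by at most 5e-04% where a gene had 100 counts. Per the submitters' processing notes, reads were aligned with HISAT2 2.1.0 to mm10. How reads were counted (program, annotation, strand) is not given in the sources used here. Total RNA was extracted with TRIzol, per the labels' protocols.

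Counts were scaled with TMM over the 7 libraries, on genes kept by filterByExpr at a minimum count of 10. From these, edgeR 4.0.16 (R 4.3.3) gave CPM and, adding a prior count of 2, log2 values. TMM over all genes was run first and gave 258 higher and 69 lower genes; the filtered form was then adopted, with both counts known, to follow earlier processing of these data. Totals were from 21358854 to 32607835 per library. Single libraries are assumed by edgeR to vary like the wild type PBS pair (coefficient of variation 0.498, 1 residual and 15.2 prior degrees of freedom); the set C fit had 0.174 and 5.19. DESeq2 1.42.0 and limma 3.58.1 were alternatives. Nothing states that libraries come from separate animals, so p-values measure only the spread between these libraries, which may be technical. Scripts were tested on simulated data.

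The comparison, gene lists and rules were chosen with earlier results of these data known. Named genes are the 15 highest and 15 lowest past the size rule without predicted, RIKEN, pseudo- and small RNA genes, up to 4 per direction of each described list, and a panel of 20; others, such as the rest of the slow fibre and macrophage lists, Col1a1, Fzd10, Maff, Ctsk, Myh13, Csf1r, Adgre1, C1qa, Apoa2, Rmrp and Lars2, were chosen after their values were seen. A gene that the rule names is not reported here. Genes with identical counts in all libraries entered a list once. Positions are from GENCODE M21 (GRCm38). Alternatives covered scaling, count minimum, fold, prior count, filter, tool and wild type library.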

Additional observations from a re-analysis of the deposited data

Results flagged for a closer look

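The genes below were past 2-fold in opposite directions in the pair labelled knockout and the wild type pair of set C. The value is the log2 change with DKK1 in the pair labelled knockout minus that in wild type. That value uses wild type PBS library 2 alone, and with 1 library in each of the 4 groups of set C it has no test. The edgeR interaction over 7 libraries takes both wild type PBS libraries as the wild type reference and is thus another quantity. It called none of these genes, with an adjusted p of 0.826 for Rpph1 and 1.00 for the other 11. Its log2 difference had the same sign for 11 of the 12 genes and the opposite sign for Gm4841, at 6.34.

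Rpph1, the RNA of ribonuclease P, had 222 counts in the library labelled knockout DKK1 and 0 in the library labelled knockout PBS. Against a limit of 3 counts per library it was at least 54.4-fold higher with DKK1, and the difference from wild type at least 8.62. The value of 9.35 with a prior count of 2 depends on that prior. The difference was 7.52 for Rmrp, the RNA of the related ribonuclease MRP, with 218 and 12 counts in those libraries. Rn45s, the ribosomal RNA precursor, differed by 5.42 and Lars2, the mitochondrial leucyl-tRNA synthetase, by 5.26.

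Muscle and signalling genes differed less. The values were 4.31 for Sln, the SERCA inhibitor sarcolipin, 3.24 for Fos and 2.21 for Egr1, which are immediate early factors. Acot1, an acyl-CoA thioesterase, differed by 2.96, the complement gene C4b by 2.58 and Irf4, an interferon regulatory factor, by 2.26. In the reverse direction, Gm4841 differed by -2.48 and Mup10, a major urinary protein, by -2.83. Gm4841 was at 7.89 and 19.4 CPM in the libraries labelled knockout DKK1 and knockout PBS, at 4.38 and 1.88 CPM in wild type DKK1 and wild type PBS library 2, and at 1738 CPM in wild type PBS library 1.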

How the results depend on the processing

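The counts of 236 higher and 74 lower genes depended on the thresholds: a minimum of 50 counts gave 164 lower, 200 counts gave 153 higher and 35 lower, a 3-fold threshold gave 80 and 20, and a 1.5-fold threshold gave 733 and 319. With scaling by total counts the median log2 over all genes was 0.11, against -0.02 with TMM. This scaling gave 126 genes changed the same way in both genotypes (54 in the report), 9 higher genes of the Wnt receptor list (5) and 10 of the immediate early list (6). The 1 lower sarcomere gene, Xirp2, became 0 with total counts, TMM over set C and TMM over all genes; the last was added after seeing the data. The median of the sarcomere list turned to 0.1136, 0.0098 and 0.0151 under these. Leaving out wild type PBS library 1 or 2 gave 0 to 1 lower sarcomere genes, with medians from -0.0172 to 0.0112. With a minimum of 200 counts, 32 genes changed the same way and 6 the opposite way. With wild type PBS library 1 as the reference these were 187 and 27, and with the mean of both libraries 152 changed the same way. The wild type list grew as well, to 2314 higher and 1421 lower of 11600 genes with library 1. With the mean it held 1268 higher and 203 lower of 11489. The interaction gave 3 calls in DESeq2. The common fit gave 173 calls in DESeq2, 369 without the filter and, in fits added after seeing the data, 9 with wild type library 1 in place of library 2 and 0 with both. Of 656 values of 82 named genes under an alternative, 650 kept their side of 2-fold and 0 reversed. Kremen1 passed 2-fold with total counts, and Xirp2 and, with a prior count of 5, Cebpb fell short of it. The causes were not tested. No paired analysis was possible because only the wild type PBS titles carry numbers and nothing ties a DKK1 library to a PBS library. Without either wild type PBS library the edgeR fit over groups has no residual degrees of freedom and was not run. Depth limits genes with few reads, such as Ly6c2 and Fcgr1 with 16 counts.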

Other observations

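Genes picked here after their values were seen are given as values, with no test. Retnla, a secreted protein of alternatively activated macrophages, was at 24.4 and 5.57 CPM in the libraries labelled knockout DKK1 and knockout PBS. Cd209f, a lectin receptor, was at 5.67 and 1.20 CPM, and F13a1, a coagulation factor chain made by macrophages, at 27.6 and 12.2 CPM. These 3 genes were past 2-fold. Folr2, a folate receptor of resident macrophages, at 7.95 and 4.58 CPM, stayed within 2-fold.

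Further genes of metabolism, muscle and matrix, picked in the same way, had the following values. Ldhb, the heart-type lactate dehydrogenase, was at 265 and 83.7 CPM in the libraries labelled knockout DKK1 and knockout PBS. Idh2, the mitochondrial isocitrate dehydrogenase, was at 307 and 110 CPM, and Bdh1, a ketone body dehydrogenase, at 63.9 and 24.5 CPM. These 3 genes do not stand for oxidative genes at large. Of 48 respiratory chain subunits 41 had a log2 change below 0 and 7 above 0, with a median of -0.14. Trdn, a protein of the calcium release complex, was lower at 581 and 1581 CPM, and Nmrk2, a kinase for NAD synthesis, at 31.8 and 129 CPM. Fn1, the matrix protein fibronectin, was at 118 and 40.2 CPM, while Postn, the matrix protein periostin, was lower at 5.70 and 14.3 CPM. Sox9, a factor of cartilage and tendon cells, was at 6.49 and 1.82 CPM.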
